A study of Homo sapiens with 6 samples.

Results

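Alkaline phosphatases are enzymes held at the outer face of the cell membrane by a glycosylphosphatidylinositol (GPI) lipid anchor, where they remove phosphate groups from small molecules and proteins. The 5 genes described here are the 4 alkaline phosphatase genes ALPP, ALPPL2, ALPI and ALPL, together with CGA, the common alpha subunit of the glycoprotein hormones. They were taken by gene name from 2 deposited tables of FPKM values per gene, and all 5 of the 17721 genes in either table were listed in both. They were selected on these FPKM values, because ALPP was abundant and because CGA, ALPI and ALPL stood lower in the second table. Their values are therefore a description, and no test is given for them.

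The cells were labelled as U2OS, an established human osteosarcoma line, and were cultured in DMEM/F12 medium and, per the labels, transfected with a plasmid that encodes mutant NSun2, a cytosine methyltransferase of RNA. The labels described 6 RNA samples. Of these, 1 was input RNA from control cells (shNC) and 1 was input RNA from cells in which DNMT1, the maintenance DNA methyltransferase, was knocked down (shDNMT1). The other samples were RNA co-immunoprecipitated with the NSun2 mutant, 2 from shNC cells and 2 from shDNMT1 cells. The sources used here do not name the promoter of the plasmid or say whether a hairpin line is a single clone.

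The values were FPKM, in which fragments are divided by the length of the transcript and by the sum of mapped fragments, with 1 value per gene in each table. Neither table named a sample. They are numbered first and second here, and no number stands for control cells, knockdown cells, input or immunoprecipitate. There were no replicates, hence no SD and no test, and each difference below is one between tables. In bulk RNA, fewer cells of a type and less RNA per cell cannot be told apart. The tables held 15167 (first) and 16824 (second) genes, with 14270 in both. DNMT1 was listed at 23.3 and 9.36 FPKM and NSUN2 at 559 and 1147 FPKM, which checks no label because no table carries one.

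The alkaline phosphatases fall into a tissue-restricted group and a broadly expressed enzyme. ALPP encodes the placental enzyme, ALPPL2 (current symbol ALPG) the placental-like or germ cell enzyme and ALPI the intestinal enzyme, and their genes lie side by side on chromosome 2. ALPL encodes the tissue-nonspecific enzyme of bone, liver and kidney, which clears pyrophosphate so that bone mineral can form, and it is a marker of osteoblasts. CGA pairs with separate beta subunits to make chorionic gonadotropin, luteinising hormone, follicle-stimulating hormone and thyrotropin. Placental alkaline phosphatase and the free alpha subunit are both known as products that some tumours make outside the placenta.

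The deposited tables placed the tissue-restricted group (hg38) within 81.5 kb of chromosome 2, from 232378534 to 232460032. ALPP (ENSG00000163283) ran from 232378534 to 232382889, ALPPL2 (ENSG00000163286) from 232406843 to 232410714 and ALPI (ENSG00000163295) from 232456123 to 232460032. No other listed interval started inside that span. ALPL (ENSG00000162551) ran from 21509372 to 21578412 on chromosome 1, and CGA (ENSG00000135346) from 87085498 to 87095406 on chromosome 6. Each interval takes in exons and introns, and none of the 5 shared its interval with another identifier. The RefSeq gene (GRCh38.p14) starts at 232378751 for ALPP, 232406844 for ALPPL2 and 232456153 for ALPI, so the tables' intervals begin upstream of it, for ALPPL2 by a single base. The interval of ALPI ends before the RefSeq end of 232460753, and that of ALPL begins after the RefSeq start of 21508984.

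The sequences before the start sites show how closely these genes are related. Each line gives the 150 bases before a RefSeq transcription start (GRCh38.p14), 5′ to 3′ on the strand of the gene. In the first 3 lines, which are set together to show the shared region, capitals mark TTTAAA.
ALPP, chr2:232378601-232378750, plus strand: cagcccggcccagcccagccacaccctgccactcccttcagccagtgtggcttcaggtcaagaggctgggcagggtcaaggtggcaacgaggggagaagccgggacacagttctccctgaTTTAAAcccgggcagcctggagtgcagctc
ALPPL2, chr2:232406694-232406843, plus strand: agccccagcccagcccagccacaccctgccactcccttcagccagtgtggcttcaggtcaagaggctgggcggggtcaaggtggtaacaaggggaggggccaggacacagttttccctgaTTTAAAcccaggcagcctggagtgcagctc
ALPI, chr2:232456003-232456152, plus strand: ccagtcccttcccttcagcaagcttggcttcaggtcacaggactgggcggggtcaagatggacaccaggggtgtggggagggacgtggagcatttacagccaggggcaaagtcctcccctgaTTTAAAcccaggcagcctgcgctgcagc

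Over the 250 bases before the start, ALPP and ALPPL2 were 84.4% identical in a global alignment and shared an unbroken run of 64 bases. ALPI was further away, at 57.7% identity with ALPP and 58.4% with ALPPL2. All 3 held TTTAAA near the start, beginning 30 bases before it in ALPP and ALPPL2 and 28 bases before it in ALPI. Of 35116 RefSeq promoter windows of the same length (250 bases before and 50 after a start), 12.2% held TTTAAA, which reads the same on both strands.

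The other promoters are shown because they differ from that group and from each other. ALPL has 3 RefSeq starts, and the one nearest to the start in the tables is used. Capitals mark the GC box core GGGCGG and the TATA core TATAAA (on either strand) in ALPL, and the cAMP response element TGACGTCA and TATAAA in CGA.
ALPL, chr1:21509273-21509422, plus strand: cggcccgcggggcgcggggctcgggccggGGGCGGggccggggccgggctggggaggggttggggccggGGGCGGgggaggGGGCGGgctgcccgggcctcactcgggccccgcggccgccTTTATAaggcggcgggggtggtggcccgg
CGA, chr6:87095107-87095256, minus strand: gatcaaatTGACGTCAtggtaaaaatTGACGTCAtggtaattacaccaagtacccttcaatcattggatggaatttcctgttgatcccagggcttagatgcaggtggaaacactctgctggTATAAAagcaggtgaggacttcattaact

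The cAMP response element, the palindrome TGACGTCA bound by CREB and ATF factors, occurred at 2 places in CGA, beginning 142 and 124 bases before the start, and in none of the alkaline phosphatase windows. It was found in 1.85% of the 35116 windows, and 2 or more copies in 0.0598%. TATAAA, on either strand, was found in ALPL and CGA, in both beginning 29 bases before the start, and in 11.5% of windows. GGGCGG, on either strand, was found 4 times in the window of ALPL, in ALPPL2 and ALPI (1 match each), and in 45.0% of windows. AGATAA, the core of a GATA site, occurred in CGA, beginning 156 bases before the start, and in 10.3% of windows. The 250 bases before the start were 83.6% G and C in ALPL and 42.0% in CGA, with the other genes between 58.4% and 63.2%. These matches describe letters in the reference sequence and were not measured as bound sites.

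ALPP was the most abundant of the 5 in both tables. Its level was 342 FPKM in the first table against 214 FPKM in the second, and it ranked 172 and 257 among all listed genes. The second value was 62.6% of the first, and the log2 ratio (second over first) was -0.67 on the log2(FPKM + 1) scale. That scale is used for every log2 ratio and every 2-fold call below, unless another is named. Of listed genes, 98.9% (first table) and 98.5% (second table) were at or below the placental enzyme gene, while its difference between the tables stayed under 2-fold.

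ALPPL2 was listed at 8.39 and 5.29 FPKM, ranking 5325 and 7070. Its second value was 63.0% of the first, with a log2 ratio of -0.58. The level of ALPP was therefore 40.8 times that of ALPPL2 in the first table against 40.5 times in the second, and the plain ratio between these neighbours changed by -0.01 on the log2 scale. Their protein products are close relatives and their transcripts are nearly identical over long stretches, so the division of fragments between them upstream is uncertain.

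ALPI was listed at 66.5 and 21.5 FPKM, ranking 918 and 2950. Its second value was 32.4% of the first, a log2 ratio of -1.58. The level of ALPP relative to ALPI went from 5.15 times in the first table to 9.94 times in the second, and that of ALPI relative to ALPPL2 went from 7.92 to 4.08 times. ALPI therefore differed between the tables by more than ALPP and ALPPL2 did, although it too is a near relative of ALPP and could share fragments with it.

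ALPL was listed at 78.4 and 38.0 FPKM, ranking 752 and 1736. Its second value was 48.6% of the first, a log2 ratio of -1.02, just past the 2-fold line. It was the second most abundant of the 5 genes in both tables, at 1.18 times the level of ALPI in the first and 1.77 times in the second.

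CGA had the largest difference of the 5 genes. Its level was 15.1 FPKM in the first table against 2.31 FPKM in the second, ranking 3703 and 9481. The second value was 15.3% of the first, a plain fold of 6.53 and a log2 ratio of -2.28. CGA was at 1.80 times the level of ALPPL2 in the first table but at 0.44 times in the second, the only place where the order of the 5 genes by level changed. Without replicates, none of the neighbours in either order can be said to differ beyond error.

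**Figure D1:**
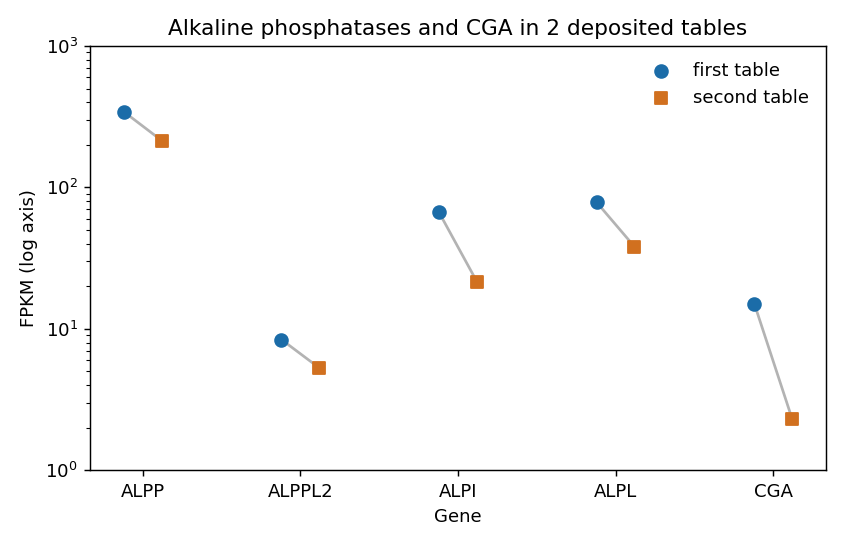
FPKM on a log axis for each of the 5 genes, with a circle for the first table, a square for the second and a grey line joining them; each point is a single deposited value with no error. All 5 squares lie below their circles, from 342 to 214 FPKM for ALPP and from 15.1 to 2.31 FPKM for CGA.

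Together the 4 alkaline phosphatases summed to 496 FPKM in the first table against 279 FPKM in the second, and the log2 ratio of the sums was -0.83. ALPP made up 69.1% and 76.8% of that sum. The share of ALPI was 13.4% and 7.72%, that of ALPL 15.8% and 13.6%, and that of ALPPL2 1.69% and 1.89%. The smaller total in the second table was thus made up to a greater extent by the placental form and to a lesser extent by the intestinal form.

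All 5 genes were lower in the second table, and 3 of them, CGA, ALPI and ALPL, by at least 2-fold. Among the 7135 genes of both tables with a mean above the median of 4.93 FPKM, 62 were at least 2-fold lower, or 0.869%, and 121 at least 2-fold higher, or 1.7%, while 42.8% were lower by any amount. Because CGA, ALPI and ALPL were chosen for being lower on these same values, and ALPP for its level, the shares are background and nothing is read from the comparison. Counted from the lowest ratio of those 7135 genes, CGA ranked 5, ALPI 10, ALPL 59, ALPP 265 and ALPPL2 410. ALPL lay just past the 2-fold line, and ALPP and ALPPL2 lay inside it. The low ranks of CGA, ALPI and ALPL follow from the choice of these genes.

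**Figure D2:**
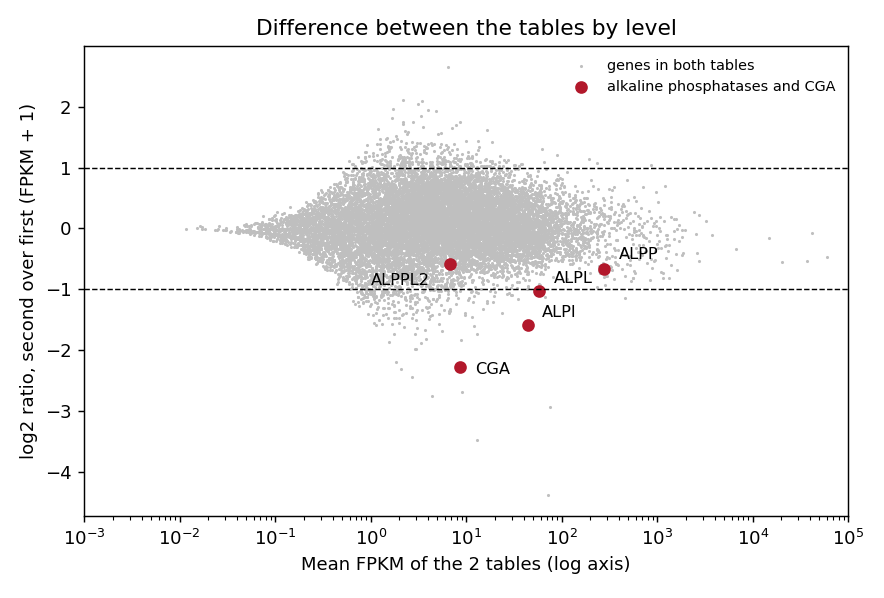
The log2 ratio of second over first table (FPKM + 1) against the mean FPKM of both tables on a log axis, with each grey point a gene listed in both, red points the 5 genes and dashed lines at a 2-fold difference. CGA at -2.28 and ALPI at -1.58 lie well below the cloud of genes of like level, ALPL lies at the lower line, and ALPP and ALPPL2 lie inside the lines.

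The genes around them on the chromosome divided between higher and lower. Distances run between the starts of the listed intervals. Of all identifiers, 47.5% share their interval with another, so a gene's own start can lie elsewhere. Within 1 Mb of ALPPL2, 19 other genes were listed in both tables, 8 higher and 11 lower in the second, with a median log2 ratio of -0.13. None of the 19 differed by 2-fold, where 1.68% of all genes in both tables were at least 2-fold lower and 2.04% at least 2-fold higher. The lowest was SCARNA5, a small Cajal body RNA, at -0.95, and the highest was GIGYF2, a translational repressor, at 0.83. Close to the cluster, the endothelin-converting enzyme-like gene ECEL1 was near the floor at 0.40 and 0.13 FPKM, as was PRSS56 at 0.59 and 0.34 FPKM. The cap-binding protein gene EIF4E2 was listed at 13.2 and 18.2 FPKM. EFHD1, with the same interval start as EIF4E2, was lower in the second table, at 8.24 and 3.93 FPKM, a log2 ratio of -0.91. In plain FPKM, EFHD1 and some others of the 19 did pass 2-fold, such as GIGYF2 at 3.05 and 6.22 FPKM.

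Within 1 Mb of ALPL, 17 genes were in both tables, 11 higher and 6 lower, with a median of 0.12 and extremes of -0.90 for EIF4G3, a translation initiation factor, and 0.80 for the GTPase CDC42. Within 1 Mb of CGA, 6 genes were in both tables, 3 higher and 3 lower, with a median of 0.09. The lowest of them, the zinc finger gene ZNF292, was at 3.83 and 2.75 FPKM, a log2 ratio of -0.36. None of these neighbours of ALPL and CGA differed by 2-fold. CGA, ALPI and ALPL were picked for being lower, so their place below their neighbours follows from the choice.

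**Figure D3:**
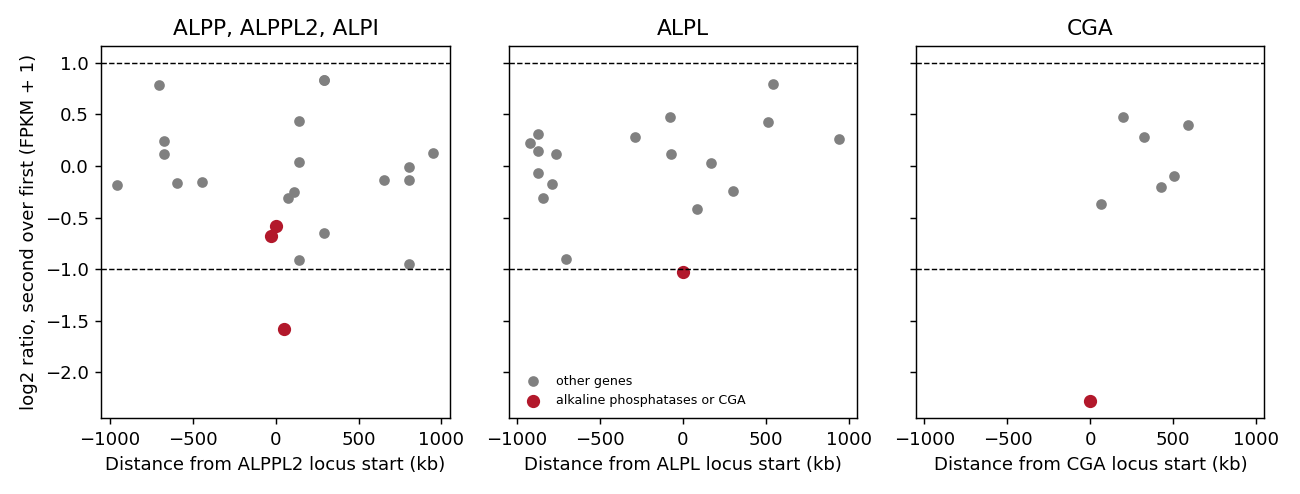
The log2 ratio of second over first table (FPKM + 1) against distance in kb between interval starts, measured from ALPPL2, ALPL or CGA, for genes in both tables within 1 Mb. Grey points are other genes, red points the alkaline phosphatases and CGA, and dashed lines mark a 2-fold difference. Genes that share an interval lie at the same distance. No grey point passes a line. ALPI at -1.58, ALPL at -1.02 and CGA at -2.28, which were chosen for being lower, lie below the lower line.

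The ratio between the tables moved with the number of listed genes nearby, so the crowding around each of the 5 genes is given beside its ratio. The 7135 genes were ranked by how many other listed genes have an interval start within 1 Mb and cut into 5 equal classes. Since many genes share an interval, these starts need not be those of the genes themselves. From the least to the most crowded class the median log2 ratios were 0.32, 0.23, 0.09, -0.03 and -0.14. In the same order 8, 5, 10, 18 and 21 genes were at least 2-fold lower. CGA, with 9 such genes, fell in the least crowded class, whose median log2 ratio was 0.32 and of whose 1427 genes 8 were at least 2-fold lower. The alkaline phosphatases, with 22 to 24, fell in the middle class, with a median of 0.09 and 10 of 1427 at least 2-fold lower. The part of crowding in the ratios of the 5 genes was not tested.

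The genes nearest to each of the 5 in level over both tables were found by the Euclidean distance of log2(FPKM + 1), a likeness that rests on 2 values per gene. The nearest to ALPP were the histone genes HIST1H2AC, at 350 and 223 FPKM, HIST1H4D and HIST1H2BG, at distances up to 0.09. PNPLA4, FBXL15 and DGAT1 were nearest to ALPPL2, at distances up to 0.04, and H19, CITED4 and SREBF1 to ALPL, with H19 at 78.1 and 40.4 FPKM. ALPI had no close match, its nearest being MCRIP2, PCOLCE and RNF13 at distances from 0.44 to 0.46. The nearest to CGA were PIK3CA at 0.32, RAB26 at 0.38 and RNU1-4 at 0.64.

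CGA was listed almost alone among the glycoprotein hormones. Of 15 genes for their subunits and receptors, CGA was the only one in the first table. In the second table the chorionic gonadotropin beta genes CGB7, at 0.25 FPKM, and CGB8, at 0.13 FPKM, were also listed. CGB7 and CGB8 are near-identical copies, so how fragments divide between them is uncertain. The beta subunit genes LHB, FSHB and TSHB and the receptor genes LHCGR, FSHR and TSHR were listed in neither table. The alpha subunit was thus listed at several FPKM with its partner subunits at or near the floor.

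Defining markers of the labelled cells and of the tissues these genes are named for were set beside them. The first table held 5 and the second 8 of 14 osteoblast and bone matrix genes, and all but ALPL stayed at or below 3.04 FPKM. COL1A1, the main collagen chain of bone, was at 3.04 and 0.45 FPKM, with a log2 ratio of -1.48. Besides ALPL, it was the only 1 past 2-fold of the 4 list genes in both tables, beside 1.68% lower and 2.04% higher over all genes. MSX2, an osteoblast homeobox factor, was at 2.41 and 2.44 FPKM. RUNX2, the master factor of osteoblasts, was listed only in the second table, at 0.81 FPKM, as was the matrix protein gene SPARC at 0.03 FPKM, and SP7, COL1A2, SPP1 and IBSP were listed in neither. ALPL at 78.4 and 38.0 FPKM was thus high while the other osteoblast genes were low or not listed, and without ALPL the list summed to 8.63 and 5.36 FPKM. ALPL is expressed in many tissues, and the other osteoblast markers in these tables did not bear out the bone origin that the labels give. Neither table named a sample, so the values may come from input or from immunoprecipitated RNA. The identity of the cells behind these tables was not tested.

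The first table held 19 and the second 21 of 48 placental trophoblast genes, and of the 17 in both, 8 were higher and 9 lower, none by 2-fold (over all genes 2.04% higher and 1.68% lower). Their median log2 ratio was -0.13, against 0.05 for all 14270 genes. The most abundant were KRT7, a keratin of simple epithelia, at 230 and 319 FPKM, and PLAC8 at 78.5 and 151 FPKM, both of which are also expressed outside the placenta. Some transcription factors of the list were present, TFAP2A at 26.2 and 28.3 FPKM, TEAD4 at 26.2 and 32.0 FPKM, GATA2 at 29.4 and 26.6 FPKM and TFAP2C at 7.12 and 6.42 FPKM. Others were near the floor or absent. DLX3 was at 0.40 and 0.05 FPKM, GATA3 was listed only in the second table at 0.15 FPKM, and TP63 and ELF5 were listed in neither. SYDE1 was listed at 45.3 and 38.7 FPKM, the imprinted gene PEG10 at 15.7 and 11.0 FPKM and XAGE2 at 8.89 and 6.11 FPKM. The placental lactogens CSH1 and CSH2, the syncytins ERVW-1 and ERVFRD-1, the factor GCM1 and the aromatase CYP19A1 were listed in neither table. The 6 pregnancy-specific glycoprotein genes PSG1, PSG2, PSG3, PSG7, PSG8 and PSG11 were also in neither table, and PSG4, PSG5, PSG6 and PSG9 did not exceed 1.16 FPKM. The list, which holds neither ALPP nor CGA, summed to 473 and 624 FPKM, most of it from KRT7 and PLAC8.

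The first table held 3 and the second 5 of 20 intestinal epithelium genes. ANPEP, a brush border peptidase also found elsewhere, was at 17.8 and 18.2 FPKM, and KLF4, a factor of differentiating epithelium, at 18.4 and 21.0 FPKM. HNF4A, a nuclear receptor of liver and gut, was at 5.11 and 0.95 FPKM, a log2 ratio of -1.65. Of the 3 list genes in both tables it was the only 1 past 2-fold, beside 1.68% lower and 2.04% higher over all genes. The defining genes LCT, SI, FABP1, FABP2, CDX1 and CDX2 were listed in neither table, and VIL1 was at 0.06 FPKM in the second alone. The list summed to 41.3 and 40.3 FPKM, so ALPI was listed at 66.5 and 21.5 FPKM without most of the genes that define enterocytes.

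The machinery that carries alkaline phosphatases to the membrane showed no common direction. Of 30 genes for GPI anchor synthesis and attachment, 28 were in both tables, 16 higher and 12 lower in the second, with a median log2 ratio of 0.06 against 0.05 for all genes. Without a level filter, 1.68% of all genes in both tables were at least 2-fold lower and 2.04% at least 2-fold higher, and in this list there was 1 of each. PIGW, which acylates the inositol of the anchor, was at 3.96 and 9.63 FPKM, and GPLD1, a phospholipase that cuts GPI anchors, at 1.39 and 0.09 FPKM. Among subunits of the transamidase that attaches the anchor, GPAA1 was listed at 107 and 85.5 FPKM, PIGS at 63.6 and 67.6 FPKM and PIGT at 66.1 and 58.1 FPKM. PIGU was at 17.6 and 19.6 FPKM, and PIGK, the catalytic subunit, was far lower at 4.19 and 3.75 FPKM.

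Other GPI-anchored proteins were not lower as a group. Of 35 such genes, 25 were in both tables, 14 higher and 11 lower, with a median log2 ratio of 0.22 against 0.05 for all genes. FOLR1, the folate receptor, at 564 and 524 FPKM, was above ALPP in both tables, and LY6E, a Ly6 family surface protein, was listed at 279 and 213 FPKM. The 2 genes at least 2-fold higher were ULBP2, a ligand of the receptor NKG2D, at 1.08 and 3.90 FPKM, and the ephrin EFNA5, at 3.10 and 8.05 FPKM. None was at least 2-fold lower. Over all genes in both tables the shares were 2.04% higher and 1.68% lower by that measure.

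Of 23 genes of phosphate, pyrophosphate and mineralisation, a list wider than the pathway of ALPL, 12 were in both tables. Of these, 9 were higher and 3 lower, with a median log2 ratio of 0.40. ENPP1, which makes the pyrophosphate that ALPL removes, was at 2.54 and 3.49 FPKM, and ANKH, which exports pyrophosphate or its precursor, at 15.2 and 15.5 FPKM. PHOSPHO1, a phosphatase of matrix vesicles that works alongside ALPL in mineralisation, was at 2.73 and 0.57 FPKM, a log2 ratio of -1.25. ANXA2, an annexin of the membrane, was at 121 and 269 FPKM, and PPA2, the mitochondrial pyrophosphatase, at 11.3 and 25.5 FPKM, both at least 2-fold higher. These 2 higher and 1 lower of 12 stand beside the shares of 2.04% and 1.68% over all genes. ANXA5, another annexin, was at 80.2 and 131 FPKM. PPA1, the cytosolic pyrophosphatase, was at 70.5 and 96.1 FPKM, and the phosphate importer SLC20A1 at 32.5 and 44.6 FPKM.

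Of 26 transcription factors known for acting on the promoters of CGA or the alkaline phosphatases, 20 were in both tables, 8 higher and 12 lower, with a median log2 ratio of -0.12 and none past 2-fold (over all genes 2.04% higher and 1.68% lower). ATF4 was the most abundant at 104 and 130 FPKM, followed by JUND at 86.6 and 59.5 FPKM. CREB1, which binds the cAMP response element printed above for CGA, was at 4.90 and 4.55 FPKM, and GATA2, a regulator of CGA in pituitary and placenta, at 29.4 and 26.6 FPKM. PITX1, a pituitary factor acting on CGA, was at 73.4 and 49.3 FPKM. LHX3 and NR5A1, other pituitary regulators of CGA, were listed in neither table.

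**Figure D4:**
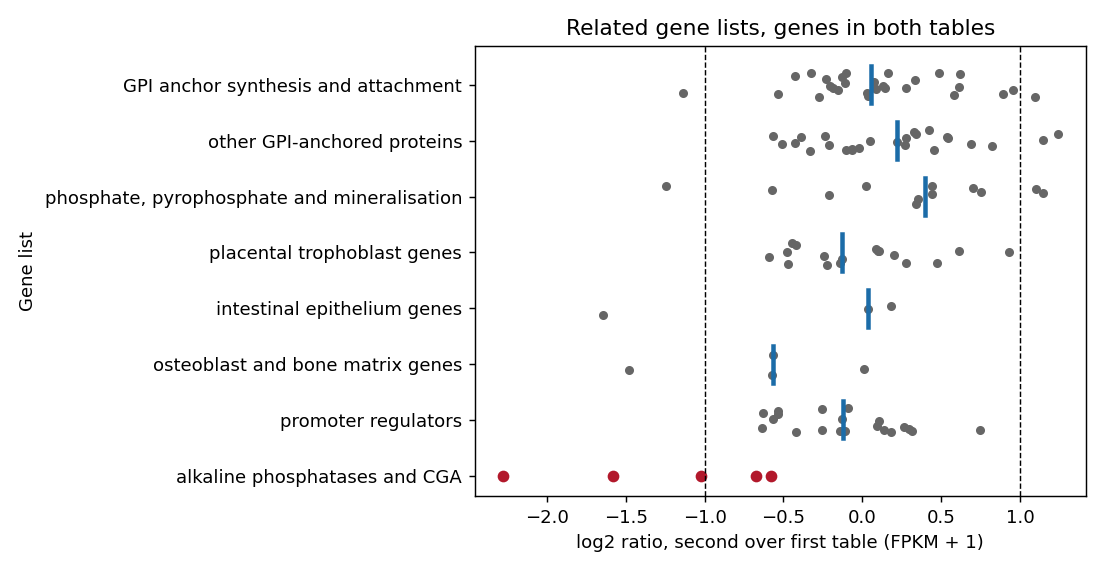
The log2 ratio of second over first table (FPKM + 1) for genes in both tables, 1 row per gene list, with a grey point per gene, a blue bar at the list median and the 5 genes in red in the bottom row; dashed lines mark a 2-fold difference and the vertical scatter has no meaning. The medians run from -0.57 for 4 osteoblast genes to 0.40 for the list of phosphate, pyrophosphate and mineralisation. The 5 red points run from -0.58 to -2.28, of which CGA, ALPI and ALPL were chosen for being lower.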

How the data were processed

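Per the file headers, the authors deposited 2 tables with a gene identifier, name, locus and FPKM. Per the submitters' processing notes, the build was hg38 and MACS 1.4.2, BWA 0.7.13 and cutadapt 1.12 were used, each without a role. No source used here names the counting tool. Since FPKM is relative to a total, abundant RNAs move the others.

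Ratios were taken as second over first on the log2 scale after a pseudocount of 1 FPKM had been added to both values, and so understate differences of low genes. Genes in 1 table had no ratio. No test was made, since the tables hold no replicate. Locus starts were raised by 1 to count from 1. Lists were matched by Ensembl identifier or name. One list is not reported here. The members and lists were chosen with earlier results of these data known. Named genes were the 5 members, the most different (at least 2-fold) and 2 most abundant of each list, and the 3 nearest in level. Further list genes serve as examples and were picked after seeing their values. Neighbours were taken by the start of the listed interval in place of names written beforehand. In alignment a match scored 2, a mismatch -1, a gap -4 to open and -1 to extend.

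Absolute depth is unknown. Among 2354 genes under 1 FPKM in both tables, log2 ratios of plain FPKM, without a pseudocount, piled up near -1.1 and near -0.08. Which of these marks equal numbers of fragments was not settled. Python 3.11.15, pandas 2.3.3, numpy 2.4.6, Biopython 1.88 and matplotlib 3.10.9 were used.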

Additional observations from a re-analysis of the deposited data

How the results depend on the processing

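No paired analysis was possible because neither table carries replicate numbers, and no replicate could be left out. Of 35 recomputed ratios of the 5 genes, 35 stayed on the same side of 2-fold, but 22 of them could not move or moved by under 0.005, so this count is no measure of robustness. With a pseudocount of 0.1 FPKM the log2 ratio was -0.66 for ALPPL2, -1.62 for ALPI, -1.04 for ALPL and -2.65 for CGA. With none, a setting chosen after seeing the data, it was -0.67, -1.63, -1.04 and -2.71. Centred on the median of all genes it was -0.73 for ALPP, -0.63 for ALPPL2, -1.64 for ALPI, -1.08 for ALPL and -2.33 for CGA. The background counts of genes at least 2-fold lower and higher, 62 and 121, became 240 and 291 without a level filter, 31 and 58 where the mean reached 10 FPKM, and 24 and 69 where genes with a shared locus were left out, since more or fewer genes entered. They became 97 and 179 with a pseudocount of 0.1 FPKM, which enlarges every ratio, and 79 and 88 after centring, so the share of higher genes depends on the scaling. ALPL lies closest to the 2-fold line. Depth and replicate error are unknown, which limits every difference given.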
